A study of Mus musculus with 5 samples.

Results

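The type 2 cytokine genes were followed in single cells of the mouse lung after bleomycin injury. The group holds 7 genes of the 28693 in the deposited feature list: the cytokines Il4, Il5 and Il13, the growth factor Areg, the transcription factor Gata3, and the receptor chains Il4ra and Il13ra1. They were chosen by symbol, and each was found once in the list. The cells came from lungs of Ms4a3-CreER;R26-tdT mice on a mixed C57BL6 and 129 background, in which tamoxifen induces a tdT label through the monocyte progenitor gene Ms4a3, so that all libraries carry the same 2 alleles. Adult mice of both sexes, from 7 weeks of age, received bleomycin into the trachea, and the sham mice received PBS. The labels call the libraries lung immune cells. The 5 droplet libraries are sham and days 3, 7, 14 and 28 after bleomycin, with 1 library each, so a difference between time points has no replicate and was not tested.

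Type 2 immunity is the arm of the immune response that deals with helminths, allergens and tissue repair. Damaged epithelial and stromal cells release alarmins such as interleukin 33, which act on group 2 innate lymphoid cells (ILC2), basophils, mast cells and some T cells. These cells then make interleukins 4, 5 and 13. Interleukin 4 drives helper T cell and B cell responses, interleukin 5 sustains eosinophils, and interleukin 13 acts on epithelium, fibroblasts and macrophages. Interleukins 4 and 13 share the receptor chain Il4ra, which pairs with Il13ra1 on non-lymphoid cells, and both turn macrophages toward the alternatively activated state. Areg encodes amphiregulin, a ligand of the epidermal growth factor receptor that is linked to repair. GATA3 is the transcription factor that ILC2 and type 2 helper T cells depend on.

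Il4, Il13 and Il5 lie together on chromosome 11 of the GRCm38 build in the GENCODE vM21 annotation, and all 3 code for protein. Il4 spans positions 53602982 to 53618669 on the minus strand, and Il13 spans 53631324 to 53634702 on the same strand, 12.65 kb away. Il5 spans 53720794 to 53725106 on the plus strand, 86.09 kb beyond Il13, with Rad50 between them. The other members lie on other chromosomes: Areg at 91139599 to 91148432 of chromosome 5, Gata3 at 9857078 to 9890034 of chromosome 2, Il4ra at 125552120 to 125579474 of chromosome 7, and Il13ra1 at 36112110 to 36171259 of chromosome X.

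The 250 bases before the RefSeq start (GRCm38.p6) of the 3 clustered genes are shown because they sit in 1 locus and yet were read out in different cells below, and because GATA3 is named for the letters it binds. The letters searched on both strands were AGATAA with its variant ending in G, which is AGATAG, and the forms that begin with T, which are TGATAA when ending in A or otherwise TGATAG. Matches are in capitals. Il4 covers chr11:53618666-53618915 (minus strand), Il13 chr11:53634703-53634952 (minus strand) and Il5 chr11:53720544-53720793 (plus strand).
Il4: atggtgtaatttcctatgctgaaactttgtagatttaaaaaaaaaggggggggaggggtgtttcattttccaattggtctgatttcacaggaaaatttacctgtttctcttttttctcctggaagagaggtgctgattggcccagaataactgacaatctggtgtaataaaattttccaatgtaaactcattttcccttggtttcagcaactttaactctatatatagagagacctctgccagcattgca
Il13: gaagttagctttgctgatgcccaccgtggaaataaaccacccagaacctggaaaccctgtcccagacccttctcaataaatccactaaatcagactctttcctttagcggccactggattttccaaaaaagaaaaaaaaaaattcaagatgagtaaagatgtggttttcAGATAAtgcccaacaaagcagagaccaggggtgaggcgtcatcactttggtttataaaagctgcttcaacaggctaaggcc
Il5: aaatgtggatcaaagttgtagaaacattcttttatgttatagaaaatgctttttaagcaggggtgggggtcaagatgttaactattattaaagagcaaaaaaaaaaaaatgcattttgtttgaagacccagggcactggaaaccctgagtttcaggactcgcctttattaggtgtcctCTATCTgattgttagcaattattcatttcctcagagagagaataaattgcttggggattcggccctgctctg
Il13 held AGATAA with its first base 81 before the start. Il5 held CTATCT, which reads as a searched motif on the other strand, 72 before its start, and Il4 held no match in this window. The letters occur in 26.5% of the 32851 windows of this length, and none of the other 4 members held a match. A match is a description of letters and not of a bound site.

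Barcodes were kept if under 15% of their UMIs were mitochondrial and if their totals lay between 800 and 60000 UMIs and between 300 and 8000 genes. By these limits 44769 of 52800 barcodes were kept, 7757 to 10279 per library, with a median of 9260 to 14254 UMIs per cell. A UMI is 1 captured RNA molecule. The lowest barcode held 4624 UMIs in the day 7 library and 500 to 502 in the others, so cells of low RNA content are missing from day 7. Libraries shared 226 barcodes. Cells were put in classes by how many genes of a marker list had a UMI, and no list holds any of the 7 genes. A cell that passed more than 1 gate (6688 cells) or no gate (4640 cells) was in no class. Of the 97 ILC2-like cells, 96.9% had a UMI of Il7r, 91.8% of Rora and 80.4% of Il1rl1, the interleukin 33 receptor, whereas 3.09% had Cd3e, 2.06% had Cd3d and 23.7% had Cd3g, which encode parts of the T cell receptor complex. Of the rest of the ILC2 list, Il2ra was in 83.5%, Arg1 in 68.0%, Thy1 in 67.0%, Icos in 48.5%, Klrg1 in 45.4% and Calca in 41.2%. Il17rb was in 27.8%, Rxrg and Tph1 in 6.19% each and Nmur1 in 5.15%. All of these genes were in the gate, so their shares describe the selection. Of T cell genes outside the gate, Trac was found in 10.3%, while Trbc1 and Trbc2, which ILC2 also transcribe, were in 55.7% and 68.0%. Of the 32 basophil-like cells, 8 were predicted doublets, all of them in sham (4 of 5) and day 3 (4 of 8). Their gate shares Cpa3 with the mast cell list, and Prss34, a basophil protease, was in only 9 of them. The mast cell genes Kit and Cma1 were in 7 and 5 of them, with 42 UMIs each, and the chymase-like gene Mcpt2, with 70 UMIs, was among their leading genes, while Tpsb2, Tpsab1 and Mcpt4 had no UMI. Basophils and mast cells were thus not fully separated by the gate, and values are also given below without the 7 cells that held Kit or Cma1, a split chosen after the data were seen. Kit was also found in 40.2% of the ILC2-like cells, so in these data it does not mark mast cells alone. No eosinophil-like cell and 1 mast cell-like cell passed their gates, and neither is described as a class.

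**Figure D1:**
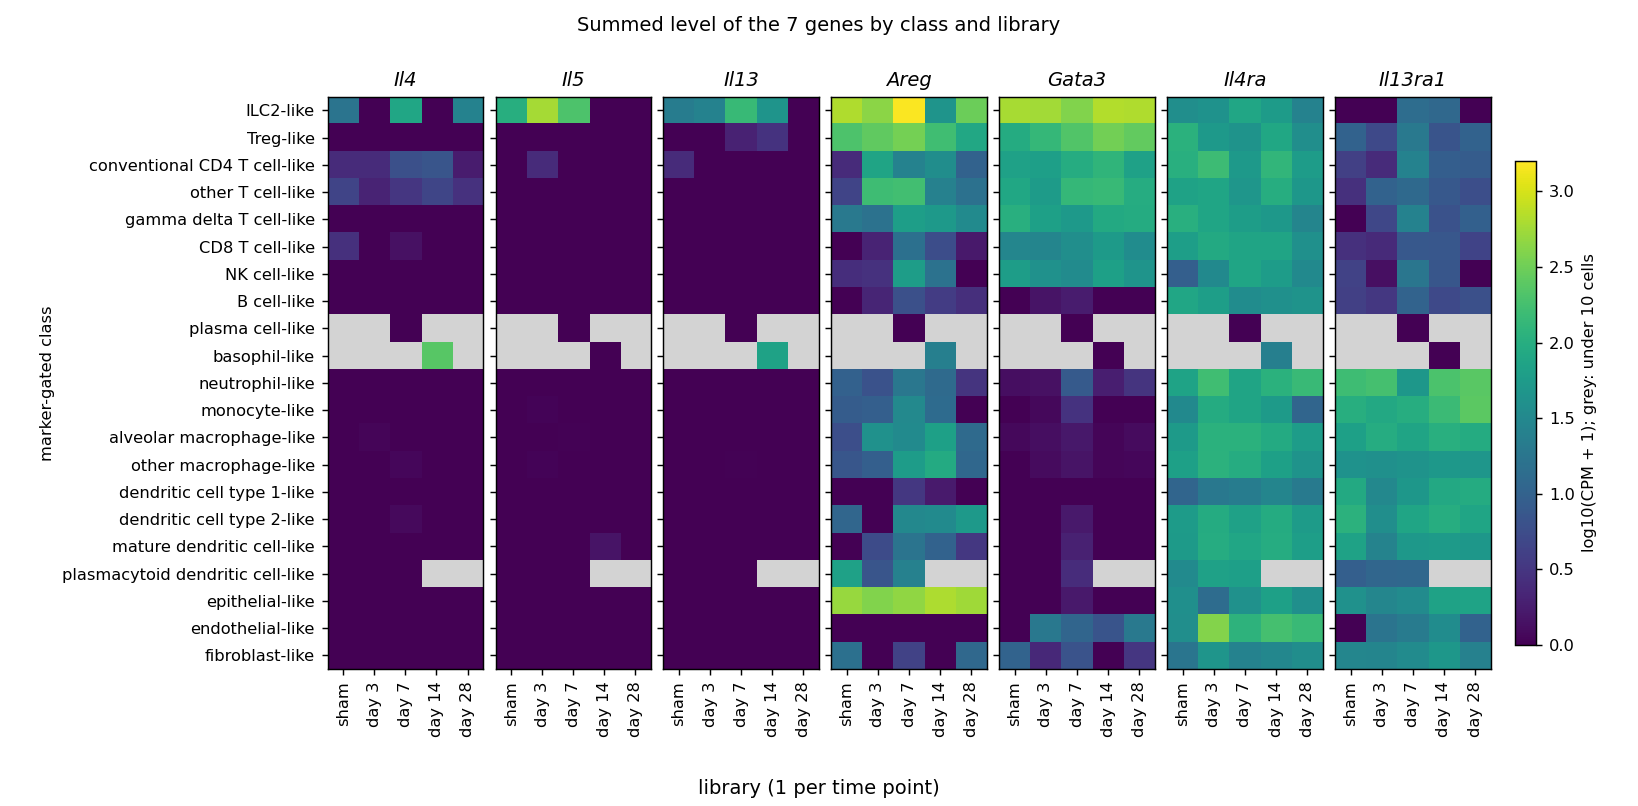
Summed level of each gene, as log10(CPM + 1) by colour, for 21 marker-gated classes (rows) in the 5 libraries (columns); grey marks a class with under 10 cells in that library. Il5 colours only the ILC2-like row strongly, Il4 and Il13 the ILC2-like and basophil-like rows, Areg the ILC2-like, Treg-like and epithelial-like rows, Gata3 the ILC2-like, T cell-like and NK cell-like rows, and the receptor chains most rows (Il4ra) or the myeloid, epithelial-like and fibroblast-like rows (Il13ra1).

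The 3 interleukins were rare transcripts. All kept cells together held 134 UMIs of Il4 in 79 cells, 120 of Il5 in 35 cells and 153 of Il13 in 32 cells. Of the Il5 UMIs, 104 (86.7%) were in ILC2-like cells. The largest parts of the Il4 and Il13 UMIs were in basophil-like cells, with 43 UMIs (32.1%) and 53 UMIs (34.6%) there, and in cells that passed more than 1 gate, with 39 UMIs (29.1%) and 72 UMIs (47.1%). Among those, 5 cells that passed the basophil gate and another gate held 22 Il4 and 62 Il13 UMIs. All 5 also held Kit or Cma1. Of the 79 cells with Il4, 19 were basophil-like, 13 were T cells outside the named subsets and 10 were conventional CD4 T-like. Levels below are CPM, the UMIs of a gene per 1000000 UMIs of its class, with exact 95% Poisson intervals, and shares are cells with a UMI, with exact 95% binomial intervals. Both cover counting error only, and a 0 is read against a limit of 3 counts.

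Il5, the eosinophil growth factor, stood at 101 CPM (60.7 to 157) in the 37 ILC2-like cells of sham, 582 CPM (453 to 736) in the 15 of day 3 and 204 CPM (117 to 332) in the 12 of day 7. No Il5 UMI was found in the 23 ILC2-like cells of day 14 or the 10 of day 28, which allows shares of up to 13% and 30%. Day 3 was thus the highest library and the 2 late ones were at 0. One day 3 cell held 44 of that library's 69 UMIs, and without it the day 3 level was 228 CPM, close to that of day 7. With the UMI floor of day 7 in every library, sham stood at 140 CPM and day 3 at 602 CPM, and days 14 and 28 had under 10 ILC2-like cells. By share of cells, Il5 was in 27.0% (13.8 to 44.1) of ILC2-like cells in sham, 46.7% (21.3 to 73.4) on day 3 and 16.7% (2.09 to 48.4) on day 7, and these intervals overlapped. With every cell thinned to 3000 UMIs the shares were 19.4%, 40% and 16.7%, still with 0 of 17 cells on day 14. The day 14 and day 28 ILC2-like cells were also shallower, with medians of 3798 and 3970.5 UMIs against 5047 to 6979 in the other 3 libraries. In alveolar macrophage-like cells, which should lack the gene and are deeper (median 17003 UMIs), 0.0267% of cells had a UMI of Il5. In conventional CD4 T-like cells it was 1 of 802 cells, at a median of 5046 UMIs.

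Il13, which acts on epithelium and fibroblasts, was found in 11 ILC2-like and 9 basophil-like cells. In ILC2-like cells it stood at 21.2 CPM (5.78 to 54.3) in sham, 25.3 CPM (5.22 to 73.9) on day 3, 140.5 CPM (70.1 to 251) on day 7 and 44.7 CPM (12.2 to 114.5) on day 14, with none on day 28, which allows up to 30% of cells. Day 7 was the highest, with the gene in 5 of 12 cells, and its interval was clear of that of sham but not of those of days 3 and 14. With the floor of day 7 in every library, sham stood at 23.4 CPM and day 3 at 26.2 CPM. In basophil-like cells Il13 stood at 68.9 CPM (25.3 to 149.9) in the 15 cells of day 14. The other libraries held 1 to 8 such cells: 4 UMIs in 5 cells of sham, 30 in 8 cells of day 3, 2 in the 1 cell of day 7 and 11 in 3 cells of day 28. A single day 3 cell held 20 of the 30. Over all libraries the basophil-like level was 286 CPM (214 to 374), and it was 152 CPM with predicted doublets removed. The 7 cells with Kit or Cma1 held 37 of the 53 UMIs, at 685 CPM (482 to 944), and the other 25 cells held 16 at 122 CPM (69.7 to 198), so the basophil-like Il13 level rests largely on cells with Kit or Cma1. All 30 UMIs of day 3 were in such cells, against 0 of the 6 on day 14. The 3 such cells of day 3 were all predicted doublets. Of alveolar macrophage-like cells, 0.0089% had a UMI of Il13.

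Il4, the cytokine of type 2 helper responses, was densest in basophil-like cells. Their 15 cells of day 14 gave 229.6 CPM (140 to 355), with a UMI in 9 cells. The values in the smaller sets were 392 CPM in sham, 184 CPM on day 3, 309.98 CPM on day 7 and 235 CPM on day 28, with 7, 12, 2 and 2 UMIs. All 5 libraries thus held Il4 in basophil-like cells within a range of 184 to 392 CPM, and the intervals overlapped. The cells with Kit or Cma1 held 14 of the 43 UMIs at 259 CPM (142 to 435), and the others 29 at 221 CPM (148 to 317). They held 10 of the 12 UMIs of day 3, in 3 cells that were all predicted doublets, and every UMI of days 7 and 28. Without them day 3 stood at 77.7 CPM (9.41 to 281), day 28 had no Il4 UMI in 1 cell and day 7 had no cell. The presence of Il4 on days 7 and 28 thus rests on cells with Kit or Cma1. Over all libraries 59.4% of basophil-like cells (40.6 to 76.3) had a UMI at a median depth of 5037 UMIs. In ILC2-like cells Il4 was in 5 of 97 cells with 10 UMIs, 6 of them in 1 cell of day 7. Conventional CD4 T-like cells held it at a low level, from 0.761 CPM on day 28 to 5.97 CPM (2.19 to 12.99) on day 14, with 12 UMIs in 10 of 802 cells. Sham and days 3, 7 and 28 had 1 cell with Il4 each, so its presence in those libraries rests on single cells. T cells outside the named subsets held 16 UMIs in 13 of 1244 cells. These shares, 1.25% and 1.05%, were above the 0.0178% of alveolar macrophage-like cells, which have over 3 times their UMIs per cell, and no Treg-like cell of 431 had a UMI. In 7 of the 10 Il4-positive conventional CD4 T-like cells Gata3 was also present.

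**Figure D2:**
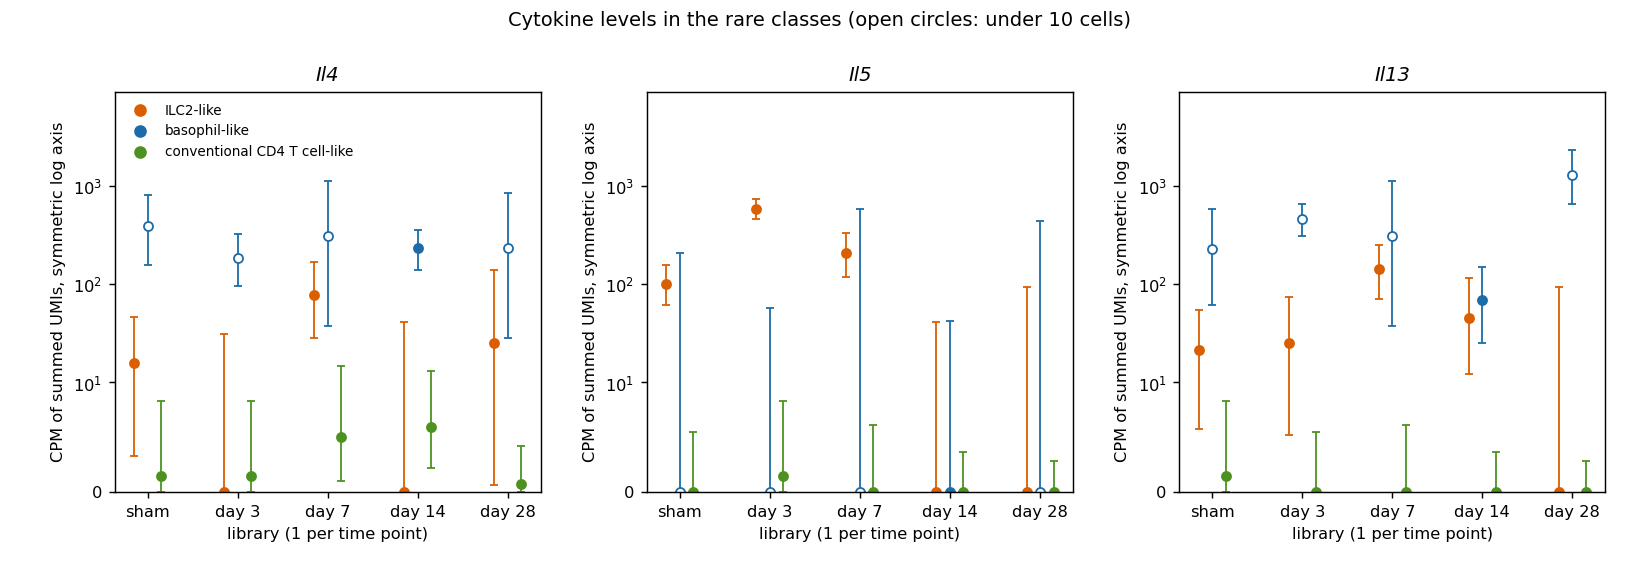
CPM (symmetric log axis, linear below 10) of Il4, Il5 and Il13 in the ILC2-like, basophil-like and conventional CD4 T-like cells of each library, with exact 95% Poisson intervals as bars; open circles rest on under 10 cells. Basophil-like cells are at 184 to 392 CPM for Il4 in all 5 libraries, on days 7 and 28 only through cells with Kit or Cma1, and at 0 for Il5. ILC2-like cells reach 582 CPM of Il5 on day 3, and conventional CD4 T-like cells stay below 6 CPM.

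Joint detection was counted per cell, where a transcript that was missed and one that was absent cannot be told apart. Among the 97 ILC2-like cells 19 had Il5 and 11 had Il13, and 3 cells had both. Of the 19 cells with Il5, 13 also had Areg and 17 had Gata3. Among basophil-like cells, 8 had both Il4 and Il13, 11 had Il4 alone and 1 had Il13 alone. Gata3 had no UMI in any of the 32 basophil-like cells, which allows a share of up to 9.38%, and Il5 had none either. Pooled over libraries, the 2 classes thus both held Il13 but differed in Il5 and Gata3 (in ILC2-like) and in the density of Il4 (in basophil-like). On day 14 alone, Il5 had no UMI in either class. Gata3 was then in 69.6% of ILC2-like and 0% of basophil-like cells, and Il4 in 0% and 60%. These differences were not tested, because only day 14 had 10 cells of both classes.

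Other cytokine genes of the pathway list were read in the same classes. In ILC2-like cells Csf2, which encodes the growth factor GM-CSF, stood at 101 CPM in sham, 2083 CPM on day 3, 562 CPM on day 7, 44.7 CPM on day 14 and 0 on day 28. It was thus also highest on day 3. Basophil-like cells held 379 UMIs of Il6, 2045 CPM, against 84.6 CPM in fibroblast-like cells, the next class. By library these were 40 UMIs in sham (2240 CPM), 72 on day 3 (1102 CPM), 267 on day 14 (3065 CPM) and 0 in the 1 and 3 cells of days 7 and 28, so day 14 gave most of them. All but 1 of the Il6 UMIs were in the cells without Kit or Cma1. Il6 was singled out after its values were seen. Il9, Il25 and Il3 had no UMI in any class. The alarmin Il33 was in 62.6% of fibroblast-like cells, from 119 to 856 CPM by library, and Tslp was at 19.1 CPM in the same class. Epithelial-like cells held Il33 at 18.5 CPM, and ILC2-like cells held 1 UMI of it.

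Areg, the epidermal growth factor receptor ligand, was far more abundant, with 26622 UMIs in 4692 cells, and per UMI of the class it was highest in ILC2-like, epithelial-like and Treg-like cells. Of the UMIs themselves, 29.8% were in cells of more than 1 gate, 23.1% in other macrophage-like, 18.0% in epithelial-like, 13.6% in alveolar macrophage-like, 3.92% in Treg-like and 1.17% in ILC2-like cells. In ILC2-like cells it stood at 663 CPM (552 to 790) in sham, 439 CPM (328 to 575) on day 3, 1507 CPM (1247 to 1805) on day 7, 44.7 CPM (12.2 to 114.5) on day 14 and 301 CPM (155 to 525) on day 28. Day 7 was the highest and day 14 the lowest, and neither CPM interval overlapped with that of any other library. By share of cells after thinning the order was the same, but the intervals were wider. The shares were 22.2% (10.1 to 39.2) in sham and 46.7% (21.3 to 73.4) on day 3. They were 66.7% (34.9 to 90.1) on day 7 and 0% (0 to 19.5) on day 14, and day 28 was left out. Areg on day 7 thus overlapped with sham and day 3 by share, and on day 14 with sham. In Treg-like cells, the T cells that restrain other lymphocytes, it was 203 CPM (127 to 308) in sham, 260.3 CPM (229 to 294) on day 3, 338 CPM (313 to 365) on day 7, 164 CPM (131 to 203) on day 14 and 82.3 CPM (48.8 to 130.1) on day 28. Day 7 was again the highest and day 28 the lowest. Day 7 was also the highest library in 11 of the 17 classes compared, so this order is not particular to these cells. Epithelial-like cells were between 386 and 640 CPM in every library, and 4780 UMIs came from 498 cells. Conventional CD4 T-like cells ran from 1.49 CPM in sham to 72.7 CPM on day 3, where 1 cell held 43 of the 49 UMIs. T cells outside the named subsets reached 161 CPM on day 3, where 1 cell held 184 of 300 UMIs, and 171 CPM on day 7. In B cell-like cells, as a low class, 0.900% had a UMI at a median of 4809 UMIs, against 38.1% of ILC2-like and 39.7% of Treg-like cells at 5044 and 6383.

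Gata3 ordered the lymphoid classes. ILC2-like cells stood at 604 CPM (499 to 726) in sham, 565 CPM (438 to 718) on day 3, 396 CPM (269 to 562) on day 7, 671 CPM (512 to 863) on day 14 and 651 CPM (426 to 955) on day 28, and these intervals overlapped. Treg-like cells stood at 92.4 CPM (44.3 to 169.9) in sham, 136 CPM (114 to 161) on day 3, 214 CPM (194 to 235) on day 7, 327 CPM (280 to 381) on day 14 and 265 CPM (201 to 343) on day 28. By CPM, sham and day 3 were the low ones and the day 14 interval was clear of both and of day 7. By share of Treg-like cells after thinning, Gata3 was in 36.8% (16.3 to 61.6) in sham and 40.7% (30.2 to 51.8) on day 3. It was in 44.9% (37.7 to 52.3) on day 7, 53.4% (41.4 to 65.2) on day 14 and 32.3% (16.7 to 51.4) on day 28. These intervals all overlapped, and day 28 was the lowest, so the order of the libraries depends on the measure. By CPM, the lowest ILC2-like library was above the highest Treg-like library. Conventional CD4 T-like cells ran from 63.8 CPM on day 3 to 124 CPM on day 14, the T cells outside the named subsets held 102 CPM over all libraries, and the gamma delta T-like ran from 51.9 to 103 CPM, the NK-like from 33.8 to 64.0 CPM and the CD8 T-like from 27.5 to 53.7 CPM, and the ranges of neighbouring classes in this order overlapped. Alveolar macrophage-like cells had Gata3 in 0.365% of cells. Of ILC2-like cells 82.5% had a UMI, of Treg-like cells 66.1% and of conventional CD4 T-like cells 25.6%, and after thinning 71.6%, 44.2% and 16.6%, with 9, 35 and 74 shallower cells left out.

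**Figure D3:**
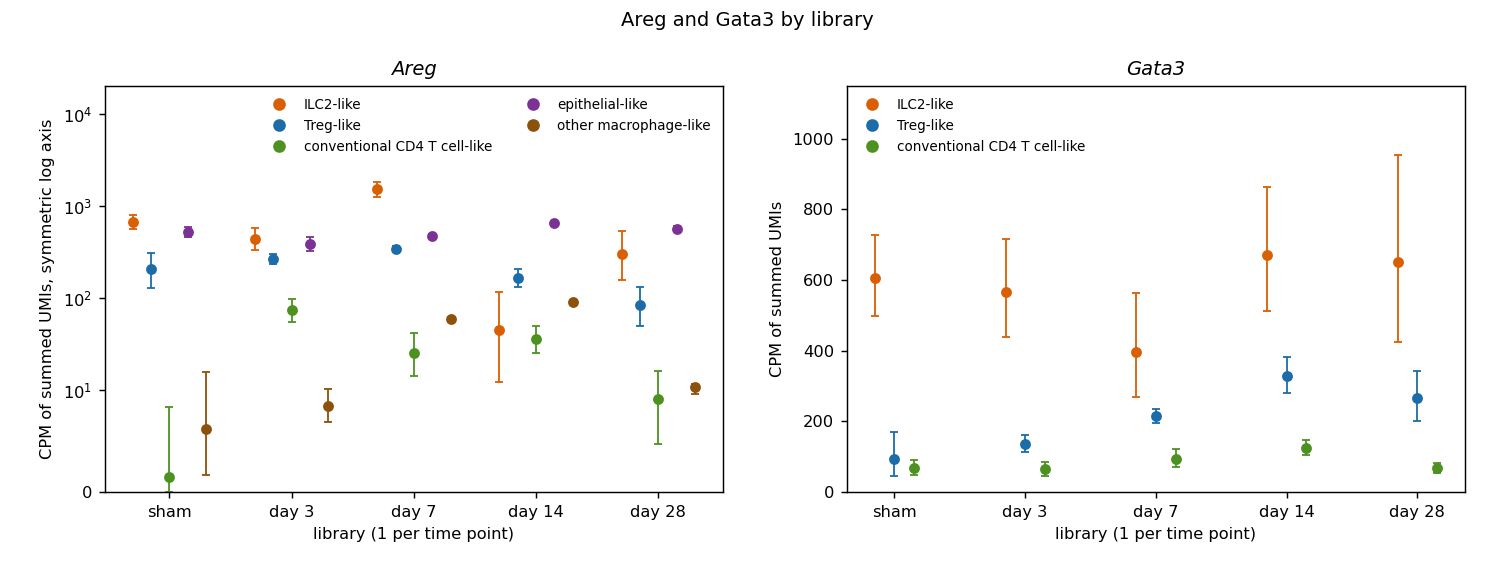
CPM of Areg (left, symmetric log axis, linear below 10) and Gata3 (right, linear axis) by library and class, with exact 95% Poisson intervals as bars. Areg in ILC2-like cells is highest on day 7 (1507 CPM) and lowest on day 14 (44.7 CPM), and Gata3 in ILC2-like cells stays above the Treg-like and conventional CD4 T-like cells in all 5 libraries.

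The lymphoid classes were compared within libraries, with UMIs summed per class and library and the library as a block (edgeR quasi-likelihood test, p adjusted by Benjamini-Hochberg over all genes tested). ILC2-like against conventional CD4 T-like cells could be tested for 3 of the 7 genes, since the sums of Il4, Il5, Il13 and Il13ra1 were below the count filter. Areg was higher in ILC2-like cells by 4.06 ± 0.49 on the log2 scale (SE, 5 libraries, adjusted p = 3.0e-07), and Gata3 by 2.71 ± 0.20 (adjusted p = 4.3e-11), both in 5 of 5 libraries. Il4ra stood at 37.1 CPM in sham, 42.2 on day 3, 76.6 on day 7, 55.9 on day 14 and 25.1 on day 28 in ILC2-like cells, and at 104, 154, 51.7, 125 and 57.8 CPM in conventional CD4 T-like cells. It was lower in ILC2-like cells, with a log2 fold change of -1.24 ± 0.32 (adjusted p = 0.0078), in 4 of 5 libraries, day 7 being the exception. Of the 4588 genes tested, 7.26% were higher and 7.52% lower in ILC2-like cells. The Il4ra call did not pass with DESeq2, with the stricter gate, without the block, or without the sham or day 3 library (adjusted p = 0.072 to 0.18). Of the 53 pathway genes, 19 could be tested that were in no gate of these classes, and 5 were higher and 2 lower against the 7.26% and 7.52% of all genes, with a median log2 fold change of -0.01, the same as over all genes. Tnfsf11, the RANK ligand, was higher by 2.37 ± 0.32, Cd200r1, an inhibitory receptor, by 2.13 ± 0.43 and Cish, a feedback inhibitor of cytokine signalling, by 2.10 ± 0.22. Stat5b, a signal transducer of interleukin 2 and 7, and Bcl11b, a T cell and ILC2 transcription factor, were lower, with log2 fold changes of -1.71 ± 0.39 and -0.67 ± 0.22.

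Treg-like cells showed the same 3 directions against conventional CD4 T-like cells, at smaller sizes. Areg was higher by 2.61 ± 0.32 (adjusted p = 2.2e-05) and Gata3 by 1.11 ± 0.16 (adjusted p = 1.3e-04), both in 5 of 5 libraries, and Il4ra was lower at -0.93 ± 0.21 (adjusted p = 0.0043, edgeR), in 4 of 5 libraries. The Treg-like Il4ra levels were 111 CPM in sham, 52.5 on day 3, 43.2 on day 7, 79.9 on day 14 and 36.6 on day 28, and sham alone was above its conventional CD4 T-like value. The Il4ra call did not pass without the block (adjusted p = 0.12) or without day 3 (adjusted p = 0.051, log2 fold change -0.60). Of the 6412 genes tested, 9.33% were higher and 9.15% lower in Treg-like cells. The 2 comparisons share their conventional CD4 T-like sums, so they are not independent, and the difference between them was not tested. Of the pathway list, 10 of 25 tested genes were higher and 5 lower against 9.33% and 9.15% of all genes, with a median of 0.20 against -0.01 over all genes. Il1rl1 was higher by 4.55 ± 0.34, Cd200r1 by 1.47 ± 0.27 and the transcription factor Maf by 1.24 ± 0.14. Il7r, the interleukin 7 receptor, was lower at -1.07 ± 0.12, as were Socs1, an inhibitor of cytokine signalling, at -0.92 ± 0.17 and the kinase Jak1 at -0.70 ± 0.11.

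Since Il1rl1 was in no Treg gate, the Treg-like cells were also split by it, after its values were seen. The 169 cells with a UMI of Il1rl1 held Areg at 407 CPM (378 to 439) and the 262 cells without at 167 CPM (150 to 186). By library the pairs were 666 and 111 CPM in sham (4 and 18 cells), 489 and 153 on day 3, 417 and 239 on day 7, 299 and 69.4 on day 14 and 167 and 40.9 on day 28. The cells with Il1rl1 were higher in 5 of 5 libraries, and their intervals did not overlap in 4 of them, day 28 being the exception. For Gata3 the pairs were 166 and 77.6 CPM in sham, 122 and 142 on day 3, 264 and 150.1 on day 7, 403 and 274 on day 14 and 347 and 225 on day 28, higher in 4 of 5. Cells with Il1rl1 were deeper over all libraries, with a median of 7523 UMIs against 5519, and the part of depth in these values was not tested.

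**Figure D4:**
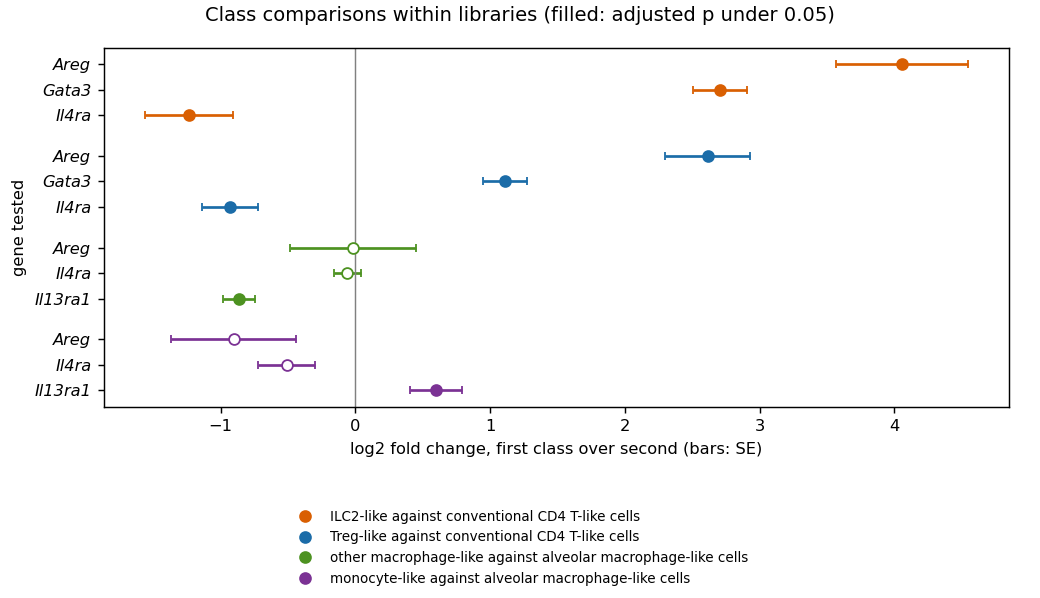
Log2 fold changes of the members that could be tested in the 4 comparisons of classes within 5 libraries (edgeR), with SE bars; filled points have an adjusted p under 0.05. Areg and Gata3 lie to the right in ILC2-like and Treg-like cells, Il4ra to the left, and Il13ra1 lies at -0.86 in other macrophage-like and 0.60 in monocyte-like cells.

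Macrophages held Areg at lower levels that differed widely between libraries. In alveolar macrophage-like cells it stood at 4.83 CPM (4.41 to 5.28) in sham, 40.4 CPM on day 3, 32.7 CPM on day 7, 65.5 CPM (62.0 to 69.1) on day 14 and 11.8 CPM on day 28. In other macrophage-like cells, the class marked by C1q genes and Ms4a7, it was 6.11 CPM (1.66 to 15.6) in the 50 cells of sham, 8.37 CPM on day 3, 58.2 CPM on day 7, 90.3 CPM (87.4 to 93.2) on day 14 and 10.6 CPM on day 28. Both classes were highest on day 14, and on day 3 the alveolar macrophage-like level lay above its sham interval while the other macrophage-like level lay within it. Among all kept cells 43.1% of the Areg UMIs were from day 14 and 34.8% from day 7. Within libraries the classes did not pass a test of their difference (log2 fold change -0.02 ± 0.47, adjusted p = 0.99, edgeR). Without the day 3 library Areg was higher in other macrophage-like cells, by 0.58 ± 0.16 (adjusted p = 0.032), so that call depends on the day 3 library.

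Il4ra, the chain shared by the receptors of interleukins 4 and 13, was found in most classes, with 44397 UMIs in 21836 cells. Endothelial-like cells reached the highest value, 400.1 CPM (346 to 460) in the 97 cells of day 3, against 37.3 CPM (0.944 to 208) from 1 UMI in sham, 117 CPM on day 7, 181 CPM on day 14 and 148 CPM on day 28. Alveolar macrophage-like cells stood at 54.3 CPM (52.9 to 55.8) in sham, 108 CPM (102 to 115) on day 3, 108 CPM (104 to 112) on day 7, 88.3 CPM (84.3 to 92.5) on day 14 and 58.2 CPM (56.1 to 60.4) on day 28. Other macrophage-like cells ran from 65.7 CPM in sham over 114 CPM on day 3 to 42.8 CPM on day 28, and monocyte-like cells stood at 32.3 CPM in sham and 92.5 CPM on day 3, with 1 UMI in the 17 cells of day 28. Neutrophil-like cells stood at 70.8 CPM in sham and 162.5 CPM on day 3. Of 18 classes with 10 cells in every library, 9 had their highest Il4ra level on day 3 and none on day 28. Over all kept cells the level was 53.8 CPM in sham and 94.1 CPM on day 3. Plasma cell-like cells, with 1 UMI in 21 cells, were the lowest.

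Il13ra1, the second chain of the receptor on non-lymphoid cells, was found mainly in myeloid classes. Neutrophil-like cells stood at 159 CPM (145 to 174) in sham, 181 CPM (165 to 198) on day 3, 48.6 CPM (32.3 to 70.3) on day 7, 193 CPM (176 to 212) on day 14 and 243 CPM (213 to 276) on day 28. They were above the monocyte-like and alveolar macrophage-like cells in sham, on day 3 and on day 14, and below the monocyte-like cells on day 7 (96.5 CPM). On day 28 their interval lay within that of the monocyte-like cells given below, so no order of these 2 classes was read. The low day 7 value came from 64 cells of the library that lacks barcodes under 4624 UMIs. With that floor in every library the neutrophil-like values were 106 CPM in sham, against 99.6 in monocyte-like cells, and 101 CPM on day 14, against 137 in monocyte-like and 104 in alveolar macrophage-like cells, so their order depends on that floor. Monocyte-like cells ran from 83.8 CPM on day 3 to 249 CPM (161 to 368) in the 17 cells of day 28, or 140 CPM there without the cell that held 12 of the 25 UMIs. Alveolar macrophage-like cells ran from 65.2 CPM (63.7 to 66.8) in sham to 104 CPM (99.7 to 109) on day 14. The lymphoid classes were low, with 3.45 CPM in CD8 T-like and 4.05 CPM in B cell-like cells, and 2 UMIs in the 97 ILC2-like cells. Over all libraries, dendritic cells of types 1 and 2 and mature ones held 46.7 to 78.8 CPM, and epithelial-like cells 53.6 CPM. Alveolar macrophage-like cells held 77.7 CPM and other macrophage-like cells 45.8 CPM by the same count. Plasmacytoid dendritic-like cells were lower, at 10.6 CPM.

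**Figure D5:**
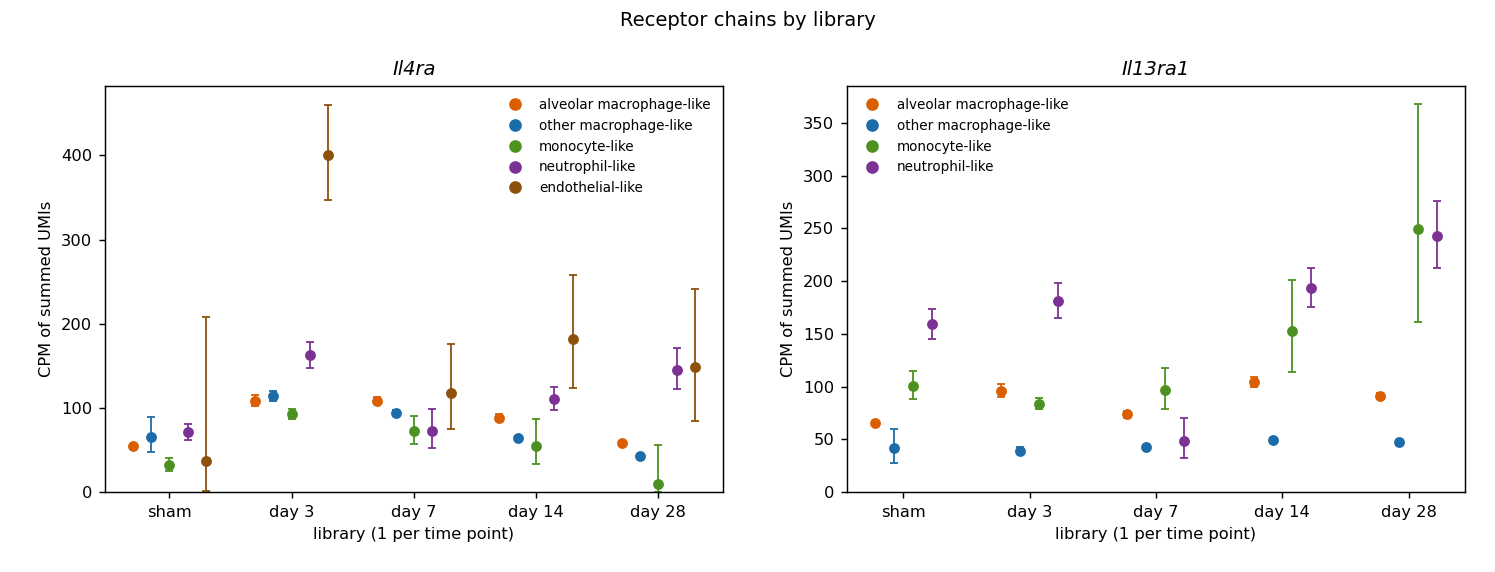
CPM of Il4ra (left) and Il13ra1 (right) by library in the myeloid classes and, for Il4ra, the endothelial-like cells, with exact 95% Poisson intervals as bars. Il4ra is highest on day 3 in endothelial-like (400.1 CPM), neutrophil-like and other macrophage-like cells, and Il13ra1 in other macrophage-like cells stays between 39.1 and 49.1 CPM, below the alveolar macrophage-like cells of each library.

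Within libraries, other macrophage-like cells held less Il13ra1 than alveolar macrophage-like cells, with a log2 fold change of -0.86 ± 0.12 (adjusted p = 0.0016, edgeR) and lower values in 5 of 5 libraries. Il4ra had a log2 fold change of -0.06 ± 0.10 (adjusted p = 0.67). Cells of more than 1 gate, which were in neither class, held 25.8% of the Il13ra1 and 25.0% of the Il4ra UMIs of all kept cells. Of the 12311 genes tested, 17.8% were higher and 20.4% lower in other macrophage-like cells, which is the background for 1 lower call among the 3 members tested. Both chains had a UMI in 4913 of 11235 alveolar macrophage-like cells, in 2186 of 6449 other macrophage-like cells and in 341 of 3069 neutrophil-like cells, where the medians were 17003 UMIs in the first and 2749 UMIs in the last. Monocyte-like cells held more Il13ra1 than alveolar macrophage-like cells, by 0.60 ± 0.19 (adjusted p = 0.028), in 4 of 5 libraries. That call was lost with DESeq2, without the count filter, without the block and with at least 20 cells per sum, and when any library other than day 3 was left out (adjusted p = 0.057 to 0.11). Of 10950 genes, 18.8% were higher and 22.1% lower in monocyte-like cells. Il4ra (-0.51 ± 0.21, adjusted p = 0.074) and Areg (-0.90 ± 0.46, adjusted p = 0.14) did not pass.

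Of the pathway list, 13 of 35 tested genes were higher and 7 lower in other macrophage-like cells, against 17.8% and 20.4% of all genes, so the lower share was near the background, with a median of 0.05 against -0.02 over all genes. The chemokines Ccl24 (7.45 ± 1.05) and Ccl8 (7.08 ± 0.90) and the alternative activation gene Retnla (5.39 ± 0.67) were higher, while Chil3, a chitinase-like protein abundant in alveolar macrophages, was lower at -4.69 ± 0.35, with the nuclear receptor Rora (-1.93 ± 0.32) and the mannose receptor Mrc1 (-1.71 ± 0.50). Retnla on one side and Chil3 and Mrc1 on the other are all used as marks of the alternatively activated state. In monocyte-like cells 10 of 29 tested genes were higher and 6 lower, against 18.8% and 22.1% of all genes, so that again the lower share was near the background. They were led by Maf (4.41 ± 0.32), Ets1 (3.1 ± 0.49) and Arg1 (2.73 ± 0.82) on one side and by Mrc1 (-4.33 ± 0.44), Chil3 (-3.37 ± 0.33) and Rora (-2.72 ± 0.22) on the other. Il13ra2, the decoy receptor of interleukin 13, had 1 UMI in fibroblast-like and 1 in alveolar macrophage-like cells.

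When the 18 classes were ordered by their level of a gene, the ranges over libraries of neighbouring classes overlapped in all 17 pairs for Il4ra and Il13ra1, in 16 for Areg and in 15 for Gata3. The exceptions were Areg between Treg-like and alveolar macrophage-like cells, and Gata3 between ILC2-like and Treg-like and between CD8 T-like and endothelial-like cells. For Il4, Il5 and Il13 most classes were at or near 0, so no order was read.

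The genes most like each member were found over 82 sums of class by library with at least 20 cells, by Pearson correlation of log2(CPM + 1) among 13379 genes. The points share libraries and lineages, so the values are a description. Gata3 was most like the lymphoid genes Skap1 (0.92), Il2rb (0.91) and Tox (0.91), and Il13ra1 was most like Trib1 (0.88), Nfe2l2 (0.83) and Pqlc1 (0.82). Il13 was most like Ccdc184 (0.63), Csf2 (0.61) and Ccl1 (0.58), and Il5 like Ccdc184 (0.53), Crtac1 (0.50) and Tmem52b (0.50). Ccdc184 was thus shared, and it stood at 249 CPM in ILC2-like cells. Il4 was most like Tnfsf11 (0.62), Gm26551 (0.61) and Themis (0.56), Areg like Hif1a (0.64), Nt5e (0.61) and Ncmap (0.60), and Il4ra like Ddx60 (0.58), Selp (0.54) and Inpp5k (0.52). No library held 20 basophil-like cells, and only sham and day 14 held 20 ILC2-like cells, so the main sources of Il4, Il5 and Il13 are few among these points.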

How the data were processed

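The deposited files hold raw UMI counts per gene and barcode, not normalized. The authors made them with Cell Ranger, 6.0.0 in the submitters' processing notes and on the mm10 genome, although the matrix headers name 3.1.0. Counts of 5 libraries were read, and barcodes were filtered on genes (300 to 8000), on UMIs (800 to 60000) and on their mitochondrial share (under 15%). Cells were gated by 23 marker lists without any of the 7 genes. A T cell needed 2 CD3 genes, and an ILC2-like cell had at most 1 CD3 gene. A Treg-like cell needed 3 Treg markers, and a conventional CD4 T-like cell had at most 1 of them. CD4 T cells with exactly 2 went to the T cells without a subset, and those with 3 or more were Treg-like. Foxp3 itself was not required, so activated CD4 T cells may be among the Treg-like cells. Gate thresholds were set after marker counts were seen. The genes, lists and comparisons were chosen with earlier results of these data known. Doublets were predicted by Scrublet (scanpy 1.11.5) and kept, except in an alternative. Cells are not replicates: UMIs were summed per class and library and tested with edgeR 4.0.16 (TMM, filterByExpr, quasi-likelihood, library block, at least 10 cells of both classes, adjusted p under 0.05), with the SE taken from the F statistic. The procedure was tested on simulated data. DESeq2 1.42.0 was an alternative. Named genes were all 7 members, the 3 largest changes in each direction among the called pathway genes, and the 3 genes most like each member. Thinned shares drew 3000 UMIs per cell and left out shallower cells. A share of 0 was read against 3 counts. Each library is 1 sample, so intervals cover counting error only, and in a sum fewer cells cannot be told apart from less RNA per cell. The 1 library per day also means that p-values measure the spread between libraries of different days.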

Additional observations from a re-analysis of the deposited data

How the results depend on the processing

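The 3 rarest genes, Il4, Il5 and Il13, fell below the count filter in every comparison as reported. With no filter, Il5 and Il13 were higher in ILC2-like than in conventional CD4 T-like cells (edgeR, adjusted p = 2.0e-39 and 1.3e-08), while DESeq2 gave adjusted p = 0.21 and 2.7e-06. The fitted Il5 log2 fold changes were 7.87 ± 0.58 and 7.14 ± 3.05, so the call depends on the tool, mainly through the SE, and with conventional CD4 T-like cells at 1 UMI neither is a bound. With the stricter gate Il13 entered the edgeR test and had an adjusted p of 1.8e-05. As gated in the main run, conventional CD4 T-like cells held 1 UMI of Il13, so this value adds no separate support. Il4 did not pass with no filter (log2 fold change 2.27, adjusted p = 0.12) or with DESeq2 (adjusted p = 0.23). Areg and Gata3 kept their direction and their call in ILC2-like and Treg-like cells under every alternative run, as did Il13ra1 in other macrophage-like cells. With each library left out in turn, the log2 fold changes in ILC2-like cells ran from 3.43 to 4.72 (Areg) and from 2.58 to 2.82 (Gata3).

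Il4ra in ILC2-like cells was -1.21 with DESeq2, -1.14 without the replicate block and -0.83 with the stricter gate, none of them past the threshold, and ran from -1.64 to -1.03 with 1 library left out. Il4ra in Treg-like cells was -0.95 without the replicate block, not past the threshold, and ran from -1.10 to -0.60. Il13ra1 in monocyte-like cells was 0.54 with DESeq2, 0.51 with no count filter, 0.60 without the replicate block and 0.44 with at least 20 cells, and ran from 0.44 to 0.74, past the threshold only without day 3 among these and with the stricter gate (0.63) or doublets removed (0.59). Areg in monocyte-like cells ran from -1.42 (past the threshold, without sham) to -0.35. Il4ra in monocyte-like cells was -0.58 with DESeq2, past the threshold, and ran from -0.71 (past it, without day 3) to -0.43. In other macrophage-like cells Areg changed sign at 0.027 with DESeq2, 0.015 with no count filter, 0.37 without the replicate block and 0.033 with doublets removed, and ran from -0.36 to 0.58; Il4ra ran from -0.10 to 0.012. The cause was not tested. With at least 20 cells ILC2-like cells had 2 libraries and no test. No other call changed without the block.

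Of the shares and levels by class and library, thinning moved 301 shares past their interval and left 483 within it. For levels these counts were 41 and 722 with the UMI floor of day 7 in every library, 57 and 741 with the stricter gate, 24 and 788 with doublets removed and 7 and 798 with the 10% mitochondrial limit. Leaving out the basophil-like cells with Kit or Cma1, which was tried only once the data had been seen, moved the Il13 level of that class over all libraries to 122 CPM and left its 13 other levels within their intervals. The ILC2-like and basophil-like values rest on 97 and 32 cells, and no time point has a replicate.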
